A study of Mus musculus with 72 samples.

Results

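In resting splenic B cells (rBs) of WT mice, 1577 genomic sites carried peaks of both IKAROS and ETS1. They were the ETS1 peaks of WT replicate 1 that overlapped, by at least 1 bp, an ETS1 peak of WT replicate 2 and an IKAROS peak of each WT replicate. The first ETS1 list held 4524 peaks, of which 3304 recurred in the second WT library. The 1577 shared sites were thus chosen on the 4 WT lists alone, so the WT calls and WT peak heights describe them and test nothing. The peaks of the whole series numbered 1156918 over 64 lists of 16 antibodies.

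The study compared cells of C57BL/6 mice with both Hmgn1 and Hmgn2 intact (Hmgn1+/+n2+/+, WT) with cells of Hmgn1-/- n2-/- mice (DKO), which lack these nucleosome-binding proteins. Each antibody had 2 biological replicates per genotype in each cell type, and the labels give no age. The question was whether HMGN proteins affect the occupancy of chromatin by transcription factors. ChIP-seq lists hold no transcript levels, and peaks at a deleted gene do not measure its product. IKAROS had 1 peak within 1000 bp of Hmgn2 in each WT list and 0 in each DKO list, and 1 peak at Hmgn1 in all 4 lists.

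HMGN1 and HMGN2 are small chromatin proteins found in most vertebrate cells, where they compete with linker histone H1 for nucleosomes. IKAROS, encoded by Ikzf1, is a zinc finger protein that binds DNA through a GGGAA core and is needed for lymphocyte development. In B cells it represses some genes and activates others, in part by recruiting the NuRD remodelling complex. ETS1 is the founding member of the ETS family, whose winged helix domain binds a GGAA core. It is abundant in resting lymphocytes, where it restrains the differentiation of B cells into plasma cells.

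The DNA under the shared sites is best seen at the ETS1 summit, the position of highest ETS1 signal in WT replicate 1. Windows of 101 bp (mm9, plus strand, 5′ to 3′) centred on this summit are given for the strongest site outside exons in each of 4 outcomes in DKO cells, first at a promoter and then elsewhere. The outcomes are those described in the later paragraphs. In the last 4 windows, IKAROS counted as lost when neither DKO list had a peak at the site's own IKAROS peak of WT replicate 1. This rule was added after the data were seen, and by the rule at the ETS1 peak other sites were stronger. Capitals mark matches, on either strand, to the ETS motifs CCGGAAG and CAGGAAG, the IKAROS core TGGGAA, the ETS-IRF composite (GGAA and, after any 2 bases, GAAA) and the octamer ATGCAAAT.
Ttpal promoter, both factors called in all DKO lists, chr2:163428443-163428543: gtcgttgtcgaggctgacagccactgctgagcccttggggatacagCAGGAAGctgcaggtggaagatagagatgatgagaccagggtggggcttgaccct
Near Zfp36, both factors called in all DKO lists, chr7:29167149-29167249: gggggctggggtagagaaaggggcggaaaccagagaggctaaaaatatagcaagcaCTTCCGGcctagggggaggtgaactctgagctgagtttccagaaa
Cdt1 promoter, ETS1 lost and IKAROS called, chr8:125092288-125092388: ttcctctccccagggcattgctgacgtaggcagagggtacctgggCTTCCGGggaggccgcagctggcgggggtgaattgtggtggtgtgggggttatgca
Near Zfp36, ETS1 lost and IKAROS called, chr7:29166082-29166182: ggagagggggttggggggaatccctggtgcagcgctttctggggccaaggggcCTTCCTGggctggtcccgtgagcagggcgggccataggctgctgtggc
Ostc promoter, IKAROS lost and ETS1 called, chr3:130412434-130412534: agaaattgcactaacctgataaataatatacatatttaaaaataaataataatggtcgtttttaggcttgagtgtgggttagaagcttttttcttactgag
Near Lfng, IKAROS lost and ETS1 called, chr5:141093842-141093942: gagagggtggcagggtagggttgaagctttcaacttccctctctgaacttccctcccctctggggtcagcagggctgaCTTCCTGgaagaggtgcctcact
Hspa4 promoter, both lost, chr11:53114175-53114275: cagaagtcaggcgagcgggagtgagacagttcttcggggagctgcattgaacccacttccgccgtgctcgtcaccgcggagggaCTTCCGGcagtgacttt
Near Lmo2, both lost, chr2:103735241-103735341: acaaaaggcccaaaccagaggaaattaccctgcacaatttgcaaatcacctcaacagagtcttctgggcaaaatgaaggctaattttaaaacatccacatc

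In these windows, picked for high WT peaks, an ETS motif lay near the ETS1 summit in 6 of 8 cases. Over all 1577 shared sites, 630 (39.9%) had either ETS motif within 100 bp of the summit. CAGGAAG was found at 24.5% of the sites without an ETS1 peak in either DKO list. It was found at 36.6% of those with one in both. For CCGGAAG the shares were 12.3% and 11.3%. The windows at Ostc and near Lmo2 held none of the searched letters.

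Of the 1577 shared sites, 531 (33.7%) were promoter sites, no more than 1000 bp from a protein-coding transcript start (GENCODE vM1), and the remaining 1046 lay elsewhere, at a median distance of 17212 bp from the nearest start. A start lay inside the ETS1 peak at 277 sites. The share at promoters was 31.7% among the 1727 other ETS1 sites, which lacked an IKAROS peak in at least 1 WT list. Some of these had an IKAROS peak in the other WT list. Among the 6850 other IKAROS sites, set apart from ETS1 in the same way, the share was 49.1%. The ETS1 summit was intronic at 640 shared sites (40.6%), intergenic at 735 (46.6%), in an annotated UTR at 170 and in a coding exon at 32. Their number per chromosome ran from 120 on chromosome 11 to 21 on X and 5 on Y.

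The 2 factors were called at the same sites but rarely at the same base. The ETS1 summits of both WT replicates were a median of 25 bp apart (quartiles 11 and 48), and the IKAROS summits 28 bp (12 and 87). By contrast, the IKAROS summit of WT replicate 1 lay a median of 208 bp from the ETS1 summit (quartiles 135 and 297), about equally often to the left (804 sites) and to the right (772). In the second WT replicates the median was 216 bp. The IKAROS summit fell inside the ETS1 peak at 455 sites (28.9%, 95% Wilson interval 26.7 to 31.1), and the 2 summits were within 50 bp at 161 sites (10.2%). At promoters the median offset was 185 bp and elsewhere 223 bp. The offset was of like size in DKO cells, 215 bp over the 330 sites where both factors were called in DKO replicate 1 and 217.5 bp over the 302 sites of DKO replicate 2.

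**Figure D1:**
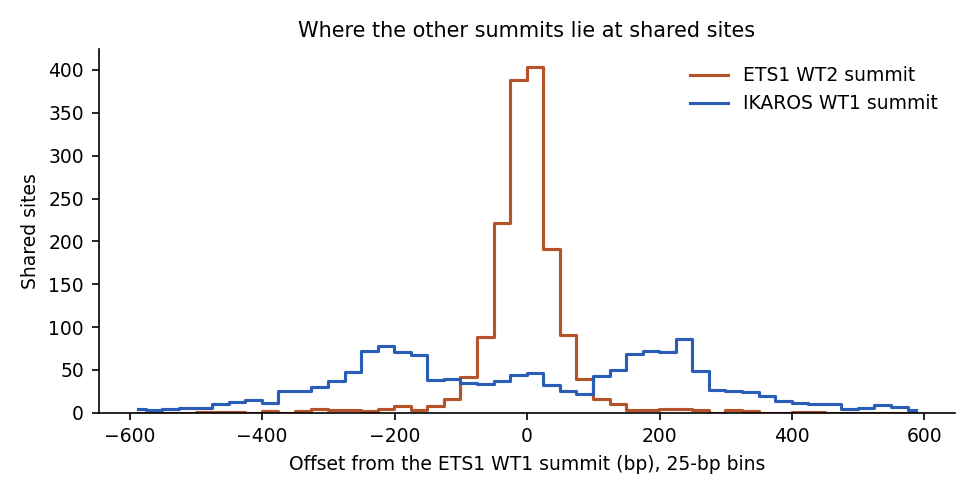
Number of shared sites (y axis) by the offset in bp of another summit from the ETS1 summit of WT replicate 1 (x axis, bins of 25 bp), for the ETS1 summit of WT replicate 2 and the IKAROS summit of WT replicate 1. The ETS1 replicate is centred on 0 with a median distance of 25 bp, while IKAROS forms a hump on either side, with a median distance of 208 bp.

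Motif matches were counted around both summits. Within 100 bp of the ETS1 summit, CAGGAAG was found at 474 sites (30.1%), CCGGAAG at 191 (12.1%), the ETS-IRF composite at 168 (10.7%) and ATGCAAAT at 60 (3.80%). At positions 5000 bp away the shares were 7.42%, 0.507%, 2.35% and 0.824%. At the first listed start of each of 22238 protein-coding genes, with windows of the same length, they were 8.97%, 8.21%, 1.63% and 0.881%. Around the IKAROS summit of the same sites the shares were lower, 12.7%, 5.01%, 3.61% and 0.824%. TGGGAA followed the opposite order, with 13.6% around the ETS1 summit, 19.3% around the IKAROS summit and 18.8% at the positions 5000 bp away. At the other ETS1 sites, CAGGAAG was found at 32.0% (interval 29.8 to 34.2, against 27.8 to 32.4 at the shared sites) and CCGGAAG at 17.3% (15.6 to 19.2, against 10.6 to 13.8). The composite can overlap either ETS motif or TGGGAA, so these shares are not exclusive, and a match does not show that a factor bound there.

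**Figure D2:**
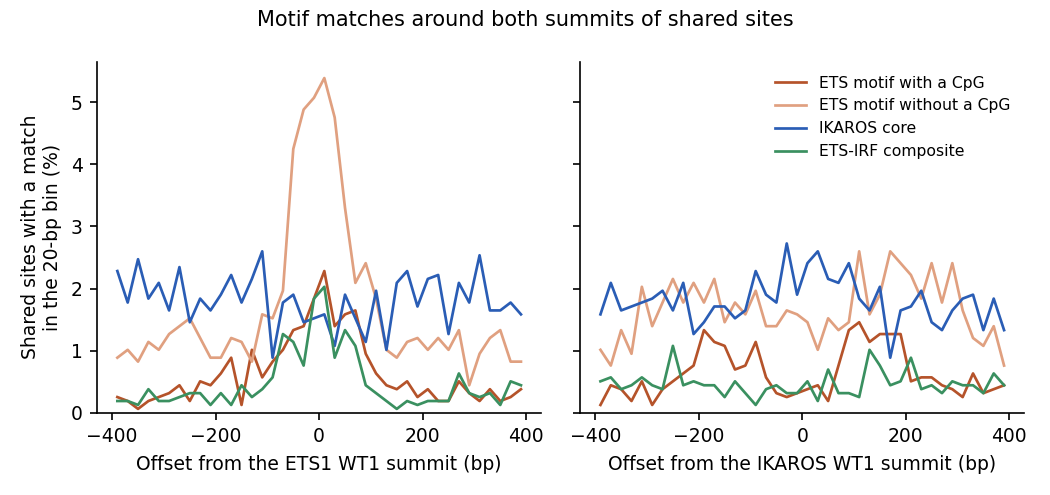
Share of the 1577 shared sites with a motif match in each 20-bp bin (y axis, %) by the offset in bp from the ETS1 (left) or IKAROS (right) summit of WT replicate 1 (x axis). The lines are CCGGAAG (ETS motif with a CpG), CAGGAAG (without a CpG), TGGGAA (IKAROS core) and the ETS-IRF composite. CAGGAAG reaches 5.39% next to the ETS1 summit, and around the IKAROS summit it is highest, at 2.60%, in the bins 110 and 170 bp away.

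The motifs differed between locations. CCGGAAG was found at 24.1% of promoter sites and 6.02% of the sites elsewhere, and CAGGAAG at 23.7% and 33.3%. The ETS-IRF composite was found at 5.65% of promoter sites and 13.2% elsewhere. The windows at promoters had a median GC content of 58.7%, against 49.8% elsewhere, which moves with the share of the CpG-containing motif.

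DKO cells had peaks of either factor at fewer of the shared sites. ETS1 was called at 597 and 538 of the 1577 sites in the DKO replicates (37.9% and 34.1%), and IKAROS at 834 and 831 (52.9% and 52.7%). The whole lists were shorter too, with 1220 and 1098 ETS1 peaks in DKO against 4524 and 4561 in WT, and 5032 and 4838 IKAROS peaks against 9102 and 10969. A site counted as lost when neither DKO list had a peak overlapping its ETS1 peak. By this rule ETS1 was lost at 876 sites (55.5%, 95% Wilson interval 53.1 to 58.0), beside 60% of all 3304 ETS1 sites. IKAROS was lost at 644 (40.8%, interval 38.4 to 43.3), beside 43.2% of all 8428 IKAROS sites, although those were looked up at the IKAROS peak itself. The intervals cover counting error over sites, which are not replicates of a genotype.

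The 2 factors went in opposite directions by location. ETS1 was called at 28.4% and 25.8% of the promoter sites in the DKO replicates, and at 42.6% and 38.3% of those elsewhere. IKAROS was called at 62.7% and 62.0% of the promoter sites and at 47.9% and 48.0% elsewhere. Each of the 2 DKO libraries of a factor showed the same order. ETS1 was lost at 65.9% of promoter sites (350 of 531, interval 61.8 to 69.8) and 50.3% elsewhere (526 of 1046, 47.3 to 53.3), an odds ratio of 1.91 (95% interval 1.54 to 2.37, two-sided Fisher's exact test across sites, p = 3.4e-09). IKAROS was lost at 33.0% of promoter sites (175, interval 29.1 to 37.1) and 44.8% elsewhere (469, 41.8 to 47.9), an odds ratio of 0.605 (interval 0.486 to 0.752, Fisher's exact test, p = 5.2e-06). All 13 such tests were adjusted together by the Benjamini-Hochberg method, and both differences passed (adjusted p = 1.1e-08 and 8.5e-06). Over all sites of each factor, ETS1 was lost at 65.7% of promoter sites and 57.3% elsewhere, and IKAROS at 35.9% and 49.5%. When each list was cut to the same number of its highest peaks, which left 331 shared sites, neither difference passed, with odds ratios of 1.23 (Fisher's exact test, p = 0.507) for ETS1 and 0.620 (Fisher's exact test, p = 0.174) for IKAROS.

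**Figure D3:**
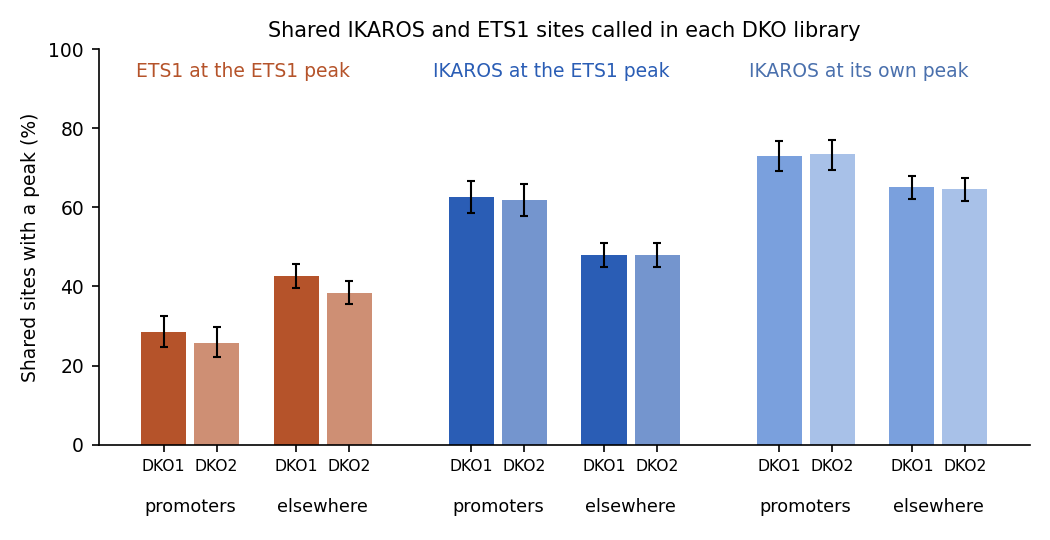
Share of shared sites with a peak (y axis, %) in each DKO library at promoters and elsewhere, for ETS1 and IKAROS looked up at the ETS1 peak, and for IKAROS looked up at its own WT peak. Error bars are 95% Wilson intervals over sites. ETS1 sits lower at promoters than elsewhere (28.4% and 25.8% against 42.6% and 38.3%), and IKAROS higher (62.7% and 62.0% against 47.9% and 48.0%).

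Because the IKAROS summit lay beside the ETS1 peak, an IKAROS peak could remain in DKO cells without reaching the ETS1 peak. The median width of IKAROS peaks at the shared sites was 498 and 629 bp in WT and 346.5 and 337 bp in DKO. Looked up at the member's own IKAROS peak of WT replicate 1, a rule added after the data were seen, IKAROS was called at 67.8% and 67.5% of sites in the DKO replicates and lost at 436 (27.6%, interval 25.5 to 29.9). Of the 644 sites without an IKAROS peak at the ETS1 peak, 214 kept one at their own IKAROS peak, 50 of them at promoters. By this rule IKAROS was lost at 23.5% of promoter sites (125) and 29.7% elsewhere (311), an odds ratio of 0.728 (interval 0.572 to 0.925, Fisher's exact test, p = 0.0104, adjusted p = 0.015).

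Loss followed the height of the WT peak. The mean WT −log10 p of a factor divided the shared sites into 4 classes of equal size. ETS1 was lost at 90.9% of the weakest class, 69.5% and 47.2% of the next and 14.5% of the strongest. IKAROS was lost at 89.1%, 45.9%, 17.3% and 10.9%. The promoter sites had weaker ETS1 peaks than the others (median −log10 p of 16.5 against 21.2 in WT replicate 1) and stronger IKAROS peaks (37.9 against 30.6). When sites were compared within 10 classes of WT height, pooled by the Mantel-Haenszel method, the odds ratio of promoters against elsewhere was 1.18 for ETS1 (interval 0.907 to 1.54) and 0.770 for IKAROS (0.578 to 1.03), and both intervals held 1. With IKAROS at its own peak it turned to 1.41 (0.967 to 2.06). WT peak height and location thus moved together, and their parts in the loss were not tested beyond this.

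**Figure D4:**
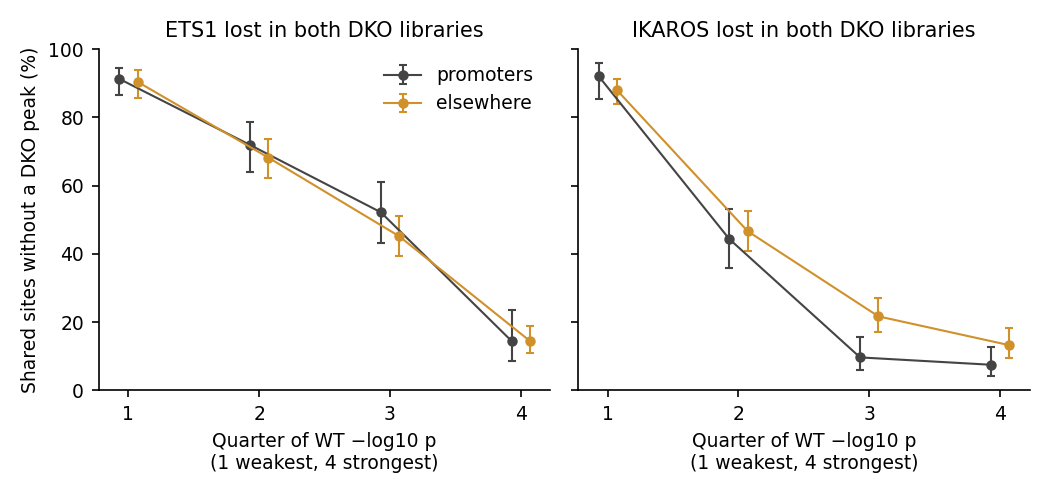
Share of shared sites without a peak in both DKO libraries (y axis, %) by class of the WT −log10 p of the same factor (x axis), for ETS1 (left) and IKAROS (right), at promoters and elsewhere, with 95% Wilson intervals. Loss of ETS1 runs from 90.9% in the weakest to 14.5% in the strongest class. From weakest to strongest, IKAROS is lost at 92.2%, 44.4%, 9.66% and 7.5% of promoter sites and 88.1%, 46.7%, 21.7% and 13.2% of those elsewhere, and ETS1 at 91.3%, 71.9%, 52.2% and 14.5% and at 90.5%, 68.2%, 45.2% and 14.5%.

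Joint loss did not differ past the threshold between promoters and elsewhere. All 4 DKO lists lacked a peak at 127 promoter sites (23.9%, interval 20.5 to 27.7) and 258 sites elsewhere (24.7%, 22.1 to 27.4), an odds ratio of 0.960 (0.752 to 1.23, Fisher's exact test, p = 0.757). When absence from at least 1 DKO list of a factor counted as loss, joint loss was less frequent at promoters (odds ratio 0.754, p = 0.0121 by Fisher's exact test). The product of the shares of each loss was 21.7% at promoters and 22.5% elsewhere, so the observed joint loss stood slightly above it in both. ETS1 was lost at 59.8% of the sites where IKAROS was lost and at 52.6% of those where it was not. With IKAROS at its own peak, joint loss was 16.9% at promoters and 16.6% elsewhere, beside products of 15.5% and 15.0%.

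As joint loss was of like size at both locations, the differences by location lay, by arithmetic, in the sites that lost 1 factor alone. The odds ratio of these sites combines the ETS1 and IKAROS differences given above and is no further evidence. At promoters 223 sites (42.0%) lost ETS1 but not IKAROS, and 48 (9.04%) lost IKAROS but not ETS1. Elsewhere the numbers were 268 (25.6%) and 211 (20.2%). The odds of ETS1 loss against IKAROS loss among these 750 sites were higher at promoters by an odds ratio of 3.66 (interval 2.55 to 5.24, Fisher's exact test, p = 1.0e-13), a test added after the data were seen. With each list cut to the same number of its highest peaks it was 2.02 and did not pass (p = 0.153, Fisher's exact test). Within classes of the difference in WT height it was 2.19 (interval 1.26 to 3.82). With IKAROS at its own peak the odds ratio was 2.89 (1.93 to 4.33, Fisher's exact test, p = 6.8e-08), and 1.17 within the classes (0.552 to 2.46). Both factors were called in at least 1 DKO library at 133 promoter sites and 309 sites elsewhere.

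A second WT library gave the scale for such losses. Among the 2056 sites chosen on the first WT library of each factor alone, the second WT library called ETS1 at 81.6%, and the DKO libraries at 31.1% and 27.8%. At the promoters of this set the WT share was 74.9% and the DKO shares 21.8% and 19.7%. Elsewhere the WT share was 85.3% and the DKO shares 36.4% and 32.4%. IKAROS was called at 93.9% in the second WT library and at 49.5% and 48.5% in the DKO libraries. Chosen on the second WT library instead, 2377 sites were called in the first WT library at 79.3% for ETS1 and 80.1% for IKAROS, and in DKO at 30.1% and 27.6% for ETS1 and 42.9% and 41.7% for IKAROS. ETS1 was thus recovered less often at promoters between WT replicates as well, and every DKO share lay below the WT share of the same sites.

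At sites with a peak in every library, heights were compared as fold enrichment, which the authors' files give as the pileup at the summit over the local background. The sites were chosen on their WT calls, so WT heights are in part set by the choice, and the values below describe these sites and test nothing about them. ETS1 was called in all 4 libraries at 434 shared sites, with a median fold enrichment of 8.59 and 8.97 in WT and 5.64 and 5.64 in DKO. Past the threshold of a limma fit over all 744 ETS1 sites with 4 calls, which were likewise chosen on WT peaks, 243 of these (56.0%) were lower in DKO and 3 higher, beside 49.5% and 1.75% of all 744. The median log2 change was −0.64 at the shared sites and −0.57 over all. For IKAROS, looked up at the IKAROS peaks of shared sites, 974 peaks were called in all 4 libraries, with a median fold enrichment of 14.3 and 15.5 in WT and 7.12 and 7.06 in DKO. In the same kind of fit 831 (85.3%) were lower and 0 higher, beside 77.4% and 0.214% of all 3742 such IKAROS sites, with a median of −1.05 against −0.92. Relative to the median of all sites in each library, 54 ETS1 sites were lower and 26 higher, beside 9.14% and 9.41% of all, and 76 IKAROS peaks were lower and 41 higher, beside 4.54% and 6.55%. On this scale the median log2 change at the shared sites was −0.08 for ETS1 and −0.12 for IKAROS.

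**Figure D5:**
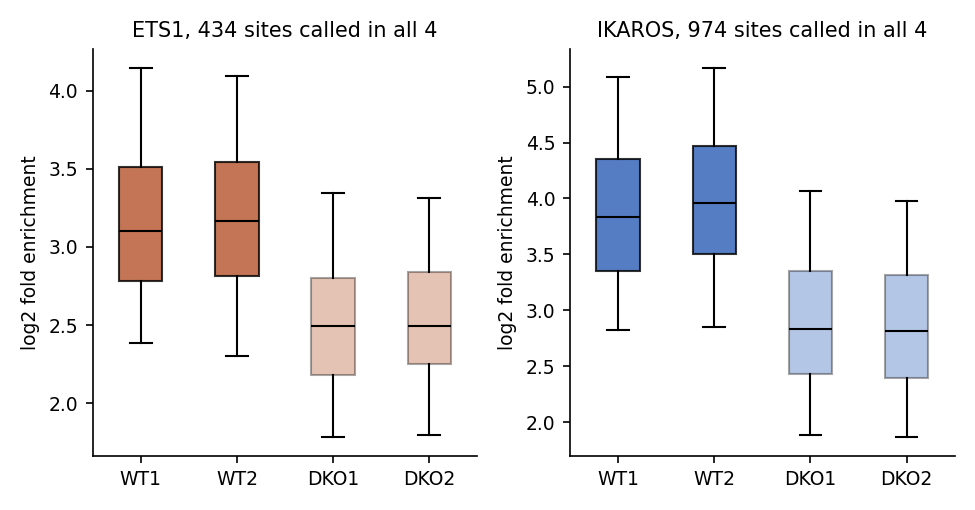
log2 fold enrichment (y axis) in the WT and DKO libraries (x axis) at the 434 shared sites with ETS1 called in all 4 libraries (left) and the 974 IKAROS peaks of shared sites called in all 4 (right). Boxes give quartiles with the median, and whiskers the 5th and 95th percentile over sites. The medians fall from 3.10 and 3.17 in WT to 2.50 and 2.50 in DKO for ETS1, and from 3.84 and 3.96 to 2.83 and 2.82 for IKAROS.

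Compared with other sites of each factor, the shared sites kept more peaks, in step with their height. ETS1 was lost at 55.5% of the shared sites and 64.2% of the 1727 other ETS1 sites, an odds ratio of 0.698 (interval 0.607 to 0.803, Fisher's exact test, p = 5.3e-07). Of the IKAROS peaks at shared sites 29.0% were lost (457 of 1578), against 46.5% of the 6850 others, an odds ratio of 0.469 (0.417 to 0.529, p = 6.6e-38, Fisher's exact test). Within classes of WT height these were 0.976 (0.824 to 1.155) and 0.931 (0.788 to 1.099). At the other ETS1 sites, loss was 65.4% at promoters and 63.6% elsewhere (odds ratio 1.09, 0.878 to 1.34, Fisher's exact test, p = 0.451). At the other IKAROS sites it was 38.0% and 54.6% (odds ratio 0.509, 0.462 to 0.560, p = 2.0e-43, Fisher's exact test), and 0.811 within the classes (0.715 to 0.920). Near the edge of the rule, 120 of 179 shared sites whose smallest overlap was under 25 bp lost ETS1, and 63 of 99 other ETS1 sites within 25 bp of the missing IKAROS peak did.

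Loss of IKAROS at its own peak fell with the distance between the summits, from 49.5% of the 273 sites with summits within 100 bp to 28.9% of the 923 sites at 100 to 300 bp and 8.92% of the 381 beyond. The WT −log10 p of IKAROS moved with it, at medians of 23.5, 37.3 and 65.6. ETS1 loss showed no such order, at 51.6%, 59.0% and 49.9%.

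The strongest shared sites that kept both factors were named by the mean −log10 q of the 4 WT libraries. In all, 68 promoter sites (12.8%) and 143 sites elsewhere (13.7%) were called in all 4 DKO lists. At promoters the highest were Zfp335, a zinc finger transcription factor, Ttpal and Rpl32, a ribosomal protein gene. At Zfp335 (ENSMUSG00000039834.9, chr2:164736879-164737411, summit in the UTR) the fold enrichment of ETS1 was 21.2 and 22.2 in WT and 8.75 and 7.86 in DKO. That of IKAROS was 57.0 and 65.7 in WT and 24.9 and 19.4 in DKO. Both WT values of each factor lay above both DKO values. Because these sites were picked for high WT peaks, their levels are given here and in the following paragraphs without a test.

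The highest ETS1 peak of all shared sites was at Rpl32 (chr6:115758570-115759162), with a fold enrichment of 47.8 and 46.3 in WT and 21.7 and 20.8 in DKO, while IKAROS was 20.3 and 20.5 in WT and 9.65 and 7.89 in DKO. At Ttpal ETS1 was 9.07 and 7.38 in WT and 5.39 and 3.23 in DKO. Both factors were called in every DKO library of these 3 promoters, below both WT values. Elsewhere the strongest were near Zfp36, which encodes an mRNA decay factor, in an intron of Myo1c, an unconventional myosin, and near Smndc1, a splicing factor gene. Near Zfp36 (chr7:29167014-29167323) ETS1 was 7.48 and 9.14 in WT and 4.26 and 5.58 in DKO.

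ETS1 was lost and IKAROS called in both DKO lists at 189 promoter sites (35.6%) and 191 sites elsewhere (18.3%). The strongest at promoters were Cdt1, a replication licensing factor, Ddx5, an RNA helicase, and Bre. At Cdt1 (ENSMUSG00000006585.2, chr8:125092270-125092422, in an intron 355 bp from a start) ETS1 had a fold enrichment of 6.78 and 4.52 in WT and no peak in DKO. IKAROS stood at 61.6 and 66.6 in WT and at 37.0 and 31.5 in DKO. Such sites held weak ETS1 peaks, with a median of 5.56 at promoters, beside 8.22 at the promoters where both were called in DKO. The sites elsewhere included a second one near Zfp36 and a second one in Myo1c, each under the same WT IKAROS peak as a site that kept both factors. Near Zfp36 the 2 ETS1 sites shared 1 IKAROS peak, of 42.6 and 44.8 in WT and 28.6 and 26.3 in DKO, and the ETS1 fold of the lost one was 5.67 and 4.95 in WT.

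The reverse class, IKAROS lost at the ETS1 peak and ETS1 called in both DKO lists, held 28 promoter sites (5.27%) and 137 elsewhere (13.1%). Its strongest members were Ccdc114, Dennd4b and Ostc at promoters, and sites nearest to Gm11029, Btg1 and Icosl elsewhere. All except Ostc kept an IKAROS peak in DKO at their own IKAROS site. Near Btg1, an antiproliferative gene 245696 bp away, IKAROS was 27.1 and 30.5 in WT and, at its own peak, 7.47 in DKO replicate 1 and 6.58 in replicate 2. ETS1 was 13.4 and 17.9 there in WT and 4.18 and 4.02 in DKO.

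Without any DKO peak at the ETS1 site the strongest were BC019943, Tcf25 and AI467606 at promoters, and Tmem163, Bzrap1 and Myo3b elsewhere. All 6 kept an IKAROS peak at their own IKAROS site, of between 10.6 and 21.2 in DKO replicate 1. Sites that lost IKAROS at its own peak were therefore named as well, after their values were seen.

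IKAROS was lost at its own peak and ETS1 called in both DKO lists at 20 promoter sites and 93 elsewhere. At Ostc (chr3:130412297-130412621), which encodes an oligosaccharyltransferase subunit, ETS1 was 21.7 and 25.03 in WT and 11.6 and 13.1 in DKO, and IKAROS was 5.62 and 3.64 in WT with no DKO peak. Tmem229b and Sfswap, a splicing regulator, followed at promoters. Elsewhere they were sites near Lfng, a Notch-modifying glycosyltransferase, in Arid1a, a subunit of the BAF remodelling complex, and in Entpd1, which encodes the ectonucleotidase CD39. Near Lfng ETS1 was 17.7 and 13.0 in WT and 8.48 and 7.09 in DKO, and IKAROS was 10.1 and 10.2 in WT.

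Both factors were lost with IKAROS at its own peak at 90 promoter sites (16.9%) and 174 elsewhere (16.6%). At Hspa4, a chaperone gene, ETS1 was 13.9 and 9.89 in WT and IKAROS 7.94 and 10.9, with no DKO peak. Fam111a and Mettl10 followed at promoters. Elsewhere they were sites near Lmo2, a haematopoietic transcription cofactor gene, near Cd79b and near Med13, a subunit of the Mediator kinase module. Near Lmo2 ETS1 was 10.98 and 16.7 in WT and IKAROS 9.93 and 6.74. Over the class at promoters the median WT fold was 5.63 for ETS1 and 6.73 for IKAROS, beside 6.11 and 11.7 over all promoter sites, and the named sites are its highest.

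Shared sites were assigned to genes by distance. In all, 564 of 22238 protein-coding genes (2.54%) had a shared site within 1000 bp of a start, and 740 (3.33%) were nearest to a site elsewhere, 1226 genes (5.51%) by either rule. Of 10 B cell markers 8 had a site by either rule, of 29 B cell transcription factor genes 17, of 29 B cell receptor signalling genes 18, of 16 homing and adhesion genes 11, and of 16 survival and cytokine receptor genes 8. Of 14 genes of MHC class II presentation 5 had one, of 26 ribosomal protein genes 8 and of 26 proteasome genes 4. Of 24 splicing factor genes 1 had a site, of 29 markers of T, NK and myeloid cells 3 (Cd3d, Itgam and Lck), and of 10 genes of pre-B cells 0. A site near a gene measures neither its transcript nor its regulation, and the lists were drawn up with earlier results of these data known.

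Among the 33 sites of B cell transcription factor genes, ETS1 was lost at 22, IKAROS at the ETS1 peak at 13 and at its own peak at 8. Over all shared sites these losses were 55.5%, 40.8% and 27.6%. At Relb, which encodes an NF-κB subunit, IKAROS was 49.2 and 58.0 in WT and 19.9 and 18.5 in DKO, and ETS1, at 7.59 and 6.47 in WT, had no DKO peak. At Tcf3, encoding the E proteins E12 and E47, ETS1 was 10.4 and 10.1 in WT and 5.09 and 5.05 in DKO, and IKAROS 38.2 and 32.1 against 17.5 and 14.04. The log2 difference of DKO from WT was −1.02 for ETS1 and −1.16 for IKAROS, with the genotypes apart for both. At Pou2af1, the octamer coactivator, ETS1 was 8.49 and 7.63 in WT with no DKO peak, while IKAROS was 21.1 and 23.0 against 8.72 and 9.15. The Ets1 gene was itself nearest to 3 shared sites, and ETS1 was called at 0 of them in DKO. The closest, 16020 bp from the Ets1 start, had an ETS1 fold of 6.92 and 5.79 in WT. The others lay 266701 and 787279 bp from that start.

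Among the 37 sites of B cell receptor signalling genes, ETS1 was lost at 18 and IKAROS at 12, or at 8 at its own peak, and 7 were called in all DKO lists. The shares over all shared sites were 55.5%, 40.8%, 27.6% and 13.4%. Near Lyn, a Src family kinase, ETS1 was 10.8 and 14.4 in WT and 4.90 and 7.23 in DKO, and IKAROS 31.0 and 31.9 against 11.7 and 12.9. At the promoter of Inpp5d, encoding the lipid phosphatase SHIP1, IKAROS was 33.9 and 27.9 in WT and 9.60 and 8.60 in DKO, and ETS1, at 10.1 and 9.45 in WT, had no DKO peak. At Cd79a, a signalling chain of the receptor, IKAROS was 15.6 and 12.3 in WT and 5.86 and 4.90 in DKO, a log2 difference of −1.37. ETS1 there was 10.8 and 9.42 in WT and 7.70 and 9.95 in DKO, so its genotypes overlapped, at a log2 difference of −0.21.

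Among the other lists, ETS1 was lost at 5 and IKAROS at 3 of the 11 sites of B cell markers, genes that are partly in the lists above, beside 55.5% and 40.8% of all shared sites. Ms4a1, encoding CD20, had a weak ETS1 peak of 3.82 and 3.69 in WT and none in DKO, and IKAROS of 14.3 and 14.2. Homing and adhesion genes had 21 sites, with ETS1 lost at 15, IKAROS at 10 and at 4 at its own peak, the last beside 27.6% of all shared sites. At the Ccr7 promoter, the receptor that guides lymphocytes to lymph nodes, ETS1 was 6.25 and 5.38 in WT with no DKO peak, and IKAROS 12.8 and 20.5 in WT and 8.07 and 9.52 in DKO. Cxcr4, the receptor for CXCL12, was nearest to 4 sites, and those 1262 and 15772 bp from its start also had an IRF8 peak.

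Of 6 sites of MHC class II genes, ETS1 was lost at 3 and IKAROS at 1, where all shared sites had 55.5% and 40.8%. The strongest, at the H2-Ob promoter, had ETS1 at 5.52 and 6.27 in WT with no DKO peak, and IKAROS at 38.4 and 33.3 in WT and 15.6 and 14.3 in DKO. Near Cd74, the invariant chain gene, ETS1 was 8.66 and 14.2 in WT and also had no DKO peak. ETS1 was called in DKO near H2-Aa, near Ciita and at 1 site near H2-DMb2. Near H2-Aa ETS1 was 7.28 and 7.06 in WT and 7.04 and 6.82 in DKO, a log2 difference of −0.05. IKAROS at its own peak was 22.1 and 36.8 there in WT and 12.6 and 11.8 in DKO, a log2 difference of −1.23. Near Ciita, the class II transactivator, ETS1 was 14.9 and 10.8 in WT and 8.78 and 9.28 in DKO, and IKAROS at its own peak was 17.5 and 18.2 in WT and 5.83 and 5.45 in DKO, a log2 difference of −1.66.

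Survival and cytokine receptor genes had 9 sites, with ETS1 lost at 4 and IKAROS at 5, and the shares over all shared sites, which also stand beside the next lists, were 55.5% and 40.8%. At Tlr4, a receptor for lipopolysaccharide, ETS1 was 13.96 and 11.4 in WT and 11.8 and 11.7 in DKO, while IKAROS, at 7.10 and 4.41 in WT, had no DKO peak. Near Bcl2, the antiapoptotic gene, ETS1 was 14.9 and 16.2 in WT and 7.64 and 7.95 in DKO. ETS1 was lost at 4 and IKAROS at 3 of the 12 sites of the listed ribosomal protein genes, and at 5 and 2 of 7 sites of the proteasome list. The ribosomal list does not hold Rpl32, and 4 of its sites, nearest to Rplp1, lay 206315 to 234483 bp from a start. The single site of the 24 listed splicing factor genes, which do not include Smndc1 or Sfswap, was near Hnrnpk. It lost IKAROS and had ETS1 at 10.1 and 9.83 in WT and 13.5 and 10.2 in DKO. Of the 3 sites of other cell types, ETS1 and IKAROS were lost at 2.

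The other antibodies in rBs, which the choice of sites did not use, were also found at fewer shared sites in DKO. IRF8 had peaks at 216 and 196 shared sites in WT and 71 and 63 in DKO, and PAX5 at 79 and 96 in WT and 13 and 13 in DKO. OCT2 had 14 and 14 in WT and 5 and 5 in DKO. They were tested with limma together with the antibodies of other cell types, over 23 counts of shared sites at promoters or elsewhere. At an adjusted p below 0.05, 9 counts were lower in DKO (39.1%), among them all 5 of rBs, and 5 were higher (21.7%), all of Nanog, Sox2 or Oct4 in ESCs. Without WT replicate 1 or without WT replicate 2, 9 counts in all passed instead of 14, and 6 when each list was cut to the same number of peaks. The log2 change was −1.79 for IRF8 at promoters and −1.57 elsewhere (adjusted p = 0.00108 and 0.00183 from limma), −3.66 and −2.47 for PAX5 (adjusted p = 0.000142 and 0.00108 from limma) and −1.24 for OCT2 elsewhere (adjusted p = 0.00108 from limma). The whole DKO lists were shorter as well, with 370 and 284 peaks against 886 and 868 in WT for IRF8, 28 and 34 against 231 and 280 for PAX5, and 10 and 18 against 72 and 65 for OCT2. The shared sites were chosen on WT lists of the same cells, a choice that can raise the WT counts of other antibodies. The p-values are therefore no separate evidence about these sites. Whether the counts at shared sites changed differently from the whole lists was not tested.

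Of the other 3 antibodies in rBs, IRF8 was found most often, with a WT peak at 244 shared sites (15.5%), 8.10% of promoter sites and 19.2% of those elsewhere. The ETS-IRF composite was found at 37.3% of the sites with IRF8 and 5.78% of those without. The site near Cxcr4 shows it in a window of 101 bp around the ETS1 summit, chosen as the strongest such site near a listed gene, with the composite and a TGGGAA match in capitals on the reverse strand.
Cxcr4 site, chr1:130487454-130487554: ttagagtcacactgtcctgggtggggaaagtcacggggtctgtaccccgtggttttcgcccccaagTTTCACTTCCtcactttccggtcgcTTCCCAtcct

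ETS1 was lost at 39.3% of the sites with IRF8 and 58.5% of those without (odds ratio 0.460, interval 0.348 to 0.608, Fisher's exact test, p = 3.8e-08). The ETS1 peaks with IRF8 were higher in WT (median −log10 p of 26.2 against 18.3), and within classes of WT height the odds ratio was 0.860 (0.609 to 1.21). IKAROS was lost at 44.7% and 40.1% (odds ratio 1.204, interval 0.915 to 1.59, Fisher's exact test, p = 0.202). The comparisons by IRF8 were added after the data were seen.

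Many of these positions had peaks in other cell types too. Of the 1577 sites, 799 (50.7%) had no WT peak of any of the 11 antibodies in embryonic fibroblasts (MEFs) and embryonic stem cells (ESCs). Promoters were 14.3% of these and 76.0% of the 287 sites with 3 or more such antibodies. H3K27ac of MEFs, a mark of active promoters and enhancers, covered 75.5% of the promoter sites and 23.0% of those elsewhere, and the bromodomain protein Brd3 66.1% and 12.2%. At the shared sites Brd3 peaks in MEFs fell from 338 and 336 promoters to 183 and 220, and CEBPB from 52 and 54 sites elsewhere to 17 and 20. Nanog in ESCs rose from 105 and 134 to 217 and 218 promoters, and Oct4 from 15 and 25 to 69 and 79. These changes passed the test over the 23 counts (adjusted p = 0.0128, 0.00166, 0.0146 and 0.0128 from limma). The whole lists moved the same way, from 31404 and 33072 peaks in WT to 8970 and 11549 in DKO for Brd3 and from 14197 and 14692 to 4886 and 5328 for CEBPB. Nanog lists went from 52307 and 53524 to 62697 and 64486 peaks, and Oct4 lists from 11140 and 12627 to 26742 and 30864. H3K27ac was found at 392 and 391 promoter sites in WT and 389 and 393 in DKO MEFs.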

How the data were processed

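ChIP-seq peak lists of IKAROS and ETS1 in resting B cells, and of 14 other antibodies in rBs, MEFs and ESCs, were used, with 2 biological replicates per genotype. Groups followed the labels. Reads were trimmed, aligned to mm9, marked for duplicates and cleared of blacklisted regions by the authors, who then ran MACS2 2.1.1.20160309 on each library against input. The deposited fold enrichment is the ratio of pileup to local background at the summit. The −log10 p and −log10 q values were deposited as the caller gave them, and the deposited score is 10 times −log10 q as a whole number. The lowest −log10 q of any list was 2.0. The lists hold no read counts, so the depth behind each library is unknown and its part in the losses was not tested. The shared sites and gene lists were chosen with earlier results of these data known.

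Python 3.11.15 with pandas 2.3.3 and numpy 2.4.6 handled the lists. Peaks matched when they overlapped by at least 1 bp, and the peak with the largest −log10 p was taken. Promoters were sites within 1000 bp of a protein-coding transcript start of GENCODE vM1. Shares have 95% Wilson intervals. They were compared across sites with two-sided Fisher's exact tests (scipy 1.17.1) and within 10 classes of equal size of the mean WT −log10 p by the Mantel-Haenszel method (statsmodels 0.14.6). Log2 fold enrichment, and log2 of the number of sites plus 0.5 for antibodies with a mean of at least 5 sites, were compared with limma 3.58.1 in R 4.3.3, without a replicate block, with Benjamini-Hochberg adjustment and a threshold of 0.05. Sites without a peak in every library have no fold enrichment and entered no such fit. With 2 libraries per genotype, the smallest p of an exact permutation test is 0.333. Motifs were read with pysam 0.24.0 from the mm9 assembly. The limma fit and the tests across sites were tested on simulated data. Named sites were the 3 with the highest mean −log10 q over the WT libraries in each of 4 DKO outcomes, at promoters and elsewhere, on assembled chromosomes other than 18, and those of 11 gene lists, of which the strongest were given. The strongest sites of 2 further outcomes, with IKAROS at its own peak, were added after their values were seen. Plots were drawn with matplotlib 3.10.9. Alternatives covered stricter peaks, other matching rules, other promoter distances, a replicate block, other scales and each replicate left out.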

Additional observations from a re-analysis of the deposited data

Results flagged for a closer look

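At shared sites that lost 1 factor and not the other, the balance of ETS1 loss against IKAROS loss differed between promoters and sites elsewhere (odds ratio 3.66, p = 1.0e-13 by Fisher's exact test). With IKAROS looked up at its own WT peak it was 2.89 (p = 6.8e-08, Fisher's exact test). With each list cut to the same number of its highest peaks the first was 2.02 and did not pass (p = 0.153, Fisher's exact test). The difference itself was tested, after it had been seen in the same sites, and it combines the ETS1 and IKAROS differences given above. Within classes of the difference in WT peak height the odds ratios were 2.19 (interval 1.26 to 3.82) and 1.17 (0.552 to 2.46), so with IKAROS at its own peak the interval held 1. WT peak height, peak width and distance between the summits all moved with location, and their parts were not tested beyond this.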

How the results depend on the processing

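Odds ratios of promoters against elsewhere depended on peak height and on how the lists were matched. With each list cut to the same number of its highest peaks they were 1.23 for ETS1 loss, 0.620 for IKAROS loss, 1.09 for joint loss and 2.02 for ETS1 against IKAROS loss, and 0.851 for ETS1 loss at shared against other ETS1 sites, none past the threshold. Within 10 classes of WT height they were 1.18, 0.770 and 1.04 for the first 3, and 0.976 and 0.931 for shared against other sites of ETS1 and IKAROS. With IKAROS at its own peak joint loss was 1.02, and within the classes IKAROS loss was 1.41, joint loss 1.198 and ETS1 against IKAROS loss 1.17. This lookup, like the test of ETS1 against IKAROS loss, was chosen after seeing the data. With summits at most 150 bp apart ETS1 loss was 1.54 and no longer passed, IKAROS loss 0.281 and ETS1 against IKAROS loss 6.22, with an overlap of 0.5 of the shorter peak the last 2 were 0.392 and 5.63, and with loss in at least 1 DKO library joint loss was 0.754 and passed. Without 1 replicate the odds ratios ranged from 1.79 to 2.06 for ETS1, 0.547 to 0.593 for IKAROS, 0.846 to 0.954 for joint loss and 3.59 to 4.04 for ETS1 against IKAROS loss, and from 0.580 to 0.660 (ETS1) and 0.380 to 0.495 (IKAROS) for shared against other sites, with no call changed. Against 14 antibody counts called, the number called was 5 with rB antibodies alone, 6 with equal numbers of peaks and 9 to 11 without 1 replicate. Lower fold enrichment was called at 54 ETS1 sites and 76 IKAROS peaks after centring, at 25 and 259 on ranks, and at 185 to 206 and 699 to 831 without 1 replicate. Within 50 bp the motif shares were 7.36% (CCGGAAG), 20.4% (CAGGAAG), 6.98% (TGGGAA), 6.09% (ETS-IRF composite) and 2.35% (ATGCAAAT), as fewer bases were searched. With a replicate block the counts were 14, 204 and 835. Replicate numbers did not pair the libraries (correlation of deviations −0.025 for ETS1 and −0.064 for IKAROS). Peak lists without read counts cannot separate a lost site from one under the caller's threshold.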
